A study of Mus musculus with 32 samples.

Results

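The genes described here are those of ribosome biogenesis and the nucleolus. A list of 40 was fixed by gene symbol, and 33 of the 40 had a probe in the deposited value table, with 58 probes in all of the 20824 in that table. The list was chosen with earlier results of these data known. Dkc1, Utp20, Fbl, Nop16, Bysl, Rrs1 and Wdr12 had no probe under those symbols and were not analysed here. For the 17 genes with several probes, the probe with the highest mean level over all arrays stood for the gene. Other probes are named for some of the genes where they differed, and for several comparisons only the number of such genes is given.

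Ribosome biogenesis starts in the nucleolus, where RNA polymerase I transcribes the long precursor of the ribosomal RNAs. Small nucleolar ribonucleoproteins (snoRNPs) guide the chemical modification of this precursor: box C/D particles methylate riboses and H/ACA particles convert uridine to pseudouridine. Separate sets of assembly factors then cut and fold the RNA and build the small and the large subunit. In the intestine, dividing cells sit in the crypts, and the transcription factor Myc, a Wnt target there, is a known activator of many genes of this pathway.

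RNA from intestinal adenomas and crypts of 120-day-old C57BL/6J mice was hybridised to Illumina bead arrays, 32 in all. ApcMin/+ mice carry a germline mutation of the Wnt antagonist Apc, and their adenomas form after loss of the remaining allele. The adenoma groups were ApcMin QKO (3 arrays; ApcMin/+ with villin.Cre/+, Pygo1-/- and LoxP/LoxP alleles of Pygo2, Bcl9 and B9l), ApcMin Bcl9/B9l DKO (3 arrays; ApcMin/+ with villin.Cre/+ and LoxP/LoxP alleles of Bcl9 and B9l), ApcMin Pygo1/2 DKO (5 arrays; ApcMin/+ with villin.Cre/+, Pygo1-/- and Pygo2 LoxP/LoxP), and ApcMin (9 arrays; ApcMin/+ and no Cre). The crypt groups, 3 arrays each, were Pygo1/2 DKO and Bcl9/B9l DKO with the same alleles but no ApcMin, wt with villin.Cre/+, and wt. Bcl9, B9l, Pygo1 and Pygo2 encode cofactors through which β-catenin acts at Wnt target genes. The villin.Cre transgene is active in intestinal epithelium, so other cells of an adenoma keep the LoxP alleles intact. Adenomas were excised one by one and crypts were freed with EDTA, and several extractions from one mouse were commonly pooled for an array. Nothing in the labels says that the arrays of a group came from different mice, so p-values measure the spread between these samples only. In bulk samples, fewer cells of a type and less RNA per cell cannot be told apart.

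The labels give 2 batches. The 3 QKO arrays and 3 of the 9 ApcMin arrays (replicates 4, 6 and 8) were batch 2 and the other 26 arrays were batch 1. Batch 2 arrays were dimmer, with a mean intensity of 156 to 217, against 307 to 445 in batch 1. At a detection p below 0.01, a batch 2 array detected between 14081 and 14666 probes and a batch 1 array between 12913 and 16319. Adenomas were therefore compared with a batch term, so that QKO adenomas were set against the 3 ApcMin adenomas of batch 2. Pygo2, one of the deleted genes, fell in Pygo1/2 DKO adenomas against ApcMin adenomas (log2 change -1.14 ± 0.15, SE, adjusted p = 0.00188) and in Pygo1/2 DKO crypts against wt (villin.Cre/+) crypts (-1.61 ± 0.20, adjusted p = 0.028). It did not pass in QKO adenomas (-0.36 ± 0.19, adjusted p = 0.292), where its level was 9.75 ± 0.11 against 10.12 ± 0.33 in the ApcMin adenomas of batch 2 (SD, n = 3 each). Bcl9l did not pass in Bcl9/B9l DKO adenomas (-0.33, adjusted p = 0.477) or in QKO adenomas (0.18, adjusted p = 0.753). The tested Bcl9 probes changed by 0.04 to 0.38 in Bcl9/B9l DKO and by 0.08 to 0.77 in QKO adenomas, and none passed. Whether the Bcl9l and Bcl9 probes lie in the deleted parts is not known here. Xist, expressed from the inactive X chromosome of females, moved with some groups. It was detected in 2 of 3 QKO, 0 of 3 Bcl9/B9l DKO and 5 of 5 Pygo1/2 DKO adenomas, in 2 of 3 ApcMin adenomas of batch 2 and 6 of 6 of batch 1, and in 0 of the 12 crypt arrays.

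Promoter sequence is shown first, because Myc binds the E-box CACGTG and most members were higher in adenomas. The windows run from 250 bases before to 50 after the annotated start of transcription, 300 bases in all (RefSeq, GRCm38.p6), and 31 of the 33 genes matched a window. Npm1 and Bop1 did not. CACGTG reads the same on both strands, was the only motif searched, and occurred once in each of 7 members and more than once in none. That is 22.6% of the 31 members, against 18.8% of 85 other genes of the pathway, 11.5% of the 8707 tested genes with a window and 8.09% of all genes with one. The whole windows are printed for the 3 members with the largest rise in ApcMin adenomas over wt crypts (Mybbp1a, Polr1a and Gar1), of which Mybbp1a alone held the motif. Each sequence is written 5′ to 3′ on the strand of its gene, with CACGTG in capitals.
Mybbp1a, chr11:72441077-72441376, plus strand: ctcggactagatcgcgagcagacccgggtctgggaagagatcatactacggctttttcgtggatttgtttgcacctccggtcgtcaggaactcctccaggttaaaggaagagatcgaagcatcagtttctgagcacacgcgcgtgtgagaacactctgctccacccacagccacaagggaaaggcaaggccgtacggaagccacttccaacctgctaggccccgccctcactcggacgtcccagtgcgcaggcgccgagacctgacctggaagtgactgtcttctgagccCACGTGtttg
Polr1a, chr6:71908803-71909102, plus strand: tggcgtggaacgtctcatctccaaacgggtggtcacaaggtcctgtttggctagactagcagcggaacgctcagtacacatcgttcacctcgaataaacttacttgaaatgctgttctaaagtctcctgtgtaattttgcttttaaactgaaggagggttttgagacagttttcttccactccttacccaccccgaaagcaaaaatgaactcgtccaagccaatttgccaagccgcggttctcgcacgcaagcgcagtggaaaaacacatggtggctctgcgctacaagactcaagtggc
Gar1, chr3:129831347-129831646, minus strand: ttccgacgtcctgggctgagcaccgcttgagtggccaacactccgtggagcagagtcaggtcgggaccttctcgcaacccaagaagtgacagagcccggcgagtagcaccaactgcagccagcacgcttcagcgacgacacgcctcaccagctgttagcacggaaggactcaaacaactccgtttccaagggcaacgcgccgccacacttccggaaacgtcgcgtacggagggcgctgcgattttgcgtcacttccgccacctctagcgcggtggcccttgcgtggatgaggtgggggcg

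The other 6 members with the motif are shown by the stretch around it, with the same capitals. Relative to the start of transcription, the first base of the motif lay at 40 in Mybbp1a, -121 in Imp4, -60 in Nop2, 28 in Ltv1, 2 in Pes1, 24 in Tsr1 and 17 in Wdr43.
Imp4, chr1:34439696-34439725, plus strand: acggtcttagacCACGTGacatcccaaatc
Nop2, chr6:125131811-125131840, plus strand: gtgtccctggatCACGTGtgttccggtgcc
Ltv1, chr10:13193092-13193121, minus strand: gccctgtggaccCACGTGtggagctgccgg
Pes1, chr11:3963965-3963994, plus strand: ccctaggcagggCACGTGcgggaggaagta
Tsr1, chr11:74898092-74898121, plus strand: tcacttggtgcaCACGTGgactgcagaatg
Wdr43, chr17:71616220-71616249, plus strand: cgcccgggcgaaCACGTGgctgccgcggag
These 7 members did not move as one. In ApcMin adenomas over wt crypts, described below, 5 of the 7 rose and their median log2 change was 0.97, against 18 of the 24 members without the motif, with a median of 1.21. A match is a description of the letters in the window.

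The genes of the list stood higher in every adenoma array than in every crypt array when averaged over the 33 members. Levels are log2 intensities after background correction and quantile normalisation over all 32 arrays. The mean over the members was 9.17 ± 0.11 in QKO adenomas, 9.09 ± 0.16 in Bcl9/B9l DKO adenomas and 8.94 ± 0.16 in Pygo1/2 DKO adenomas, against 8.87 ± 0.12 in the 3 ApcMin adenomas of batch 2 and 8.81 ± 0.15 in the 6 of batch 1 (SD over arrays). It was 7.46 ± 0.13 in Pygo1/2 DKO crypts and 7.78 ± 0.23 in Bcl9/B9l DKO crypts, against 7.90 ± 0.09 in wt (villin.Cre/+) crypts and 7.80 ± 0.07 in wt crypts. The lowest adenoma array was at 8.59 and the highest crypt array at 7.99. Within batch 2 the QKO arrays lay between 9.08 and 9.29 and the ApcMin arrays between 8.79 and 9.01, without overlap. Within batch 1 the ranges of the adenoma groups overlapped, at 8.97 to 9.27 in Bcl9/B9l DKO and 8.72 to 9.14 in Pygo1/2 DKO adenomas, against 8.59 to 9.00 in ApcMin adenomas. Among crypts, the Pygo1/2 DKO arrays lay between 7.36 and 7.60, below all of the wt arrays of either kind.

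**Figure D1:**
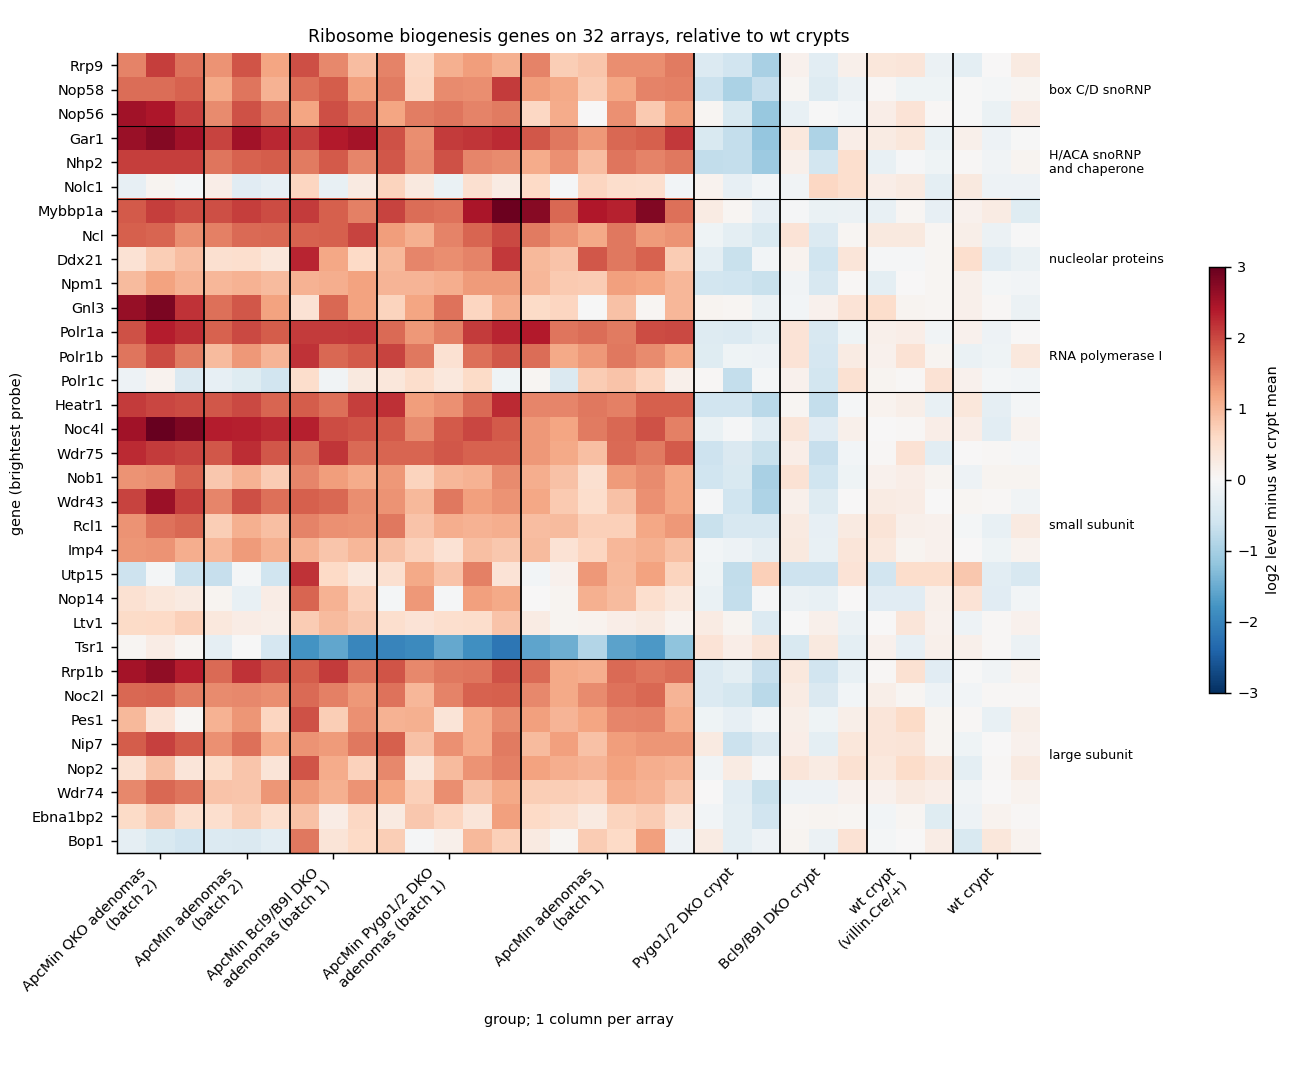
Log2 level of each of the 33 members (rows, by role) in each of the 32 arrays (columns, by group), minus the gene's mean in wt crypts, on a colour scale of -3 to 3. Most rows are above the wt crypt mean in every adenoma column, and Tsr1 is below it in the adenomas of batch 1.

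In ApcMin adenomas, 24 of the 33 members rose against wt crypts and 1, Tsr1, fell, at an adjusted p under 0.01. Across all 19002 probes tested, 18.4% were called higher and 20% lower. The median log2 change of the members was 1.09, against -0.08 over all probes. The question of this comparison is how adenomas differ from normal crypts, and with the batch term it rested on 6 ApcMin arrays of batch 1 and 3 wt arrays. Xist was detected in all 6 ApcMin arrays and in none of the wt ones (adjusted p = 0.00118), so tissue and the sex of the mice cannot be told apart here. In 24 members every ApcMin array of batch 1 was above every wt array, and in 1 (Tsr1) below, where 22.7% and 24.6% of all probes did so. All 6 role classes held members that rose: 2 of 3 box C/D proteins, 2 of 3 H/ACA proteins, 4 of 5 nucleolar proteins, 2 of 3 RNA polymerase I subunits, 7 of 11 small subunit factors and 7 of 8 large subunit factors.

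Among box C/D proteins, Nop56 and Nop58 form the paired scaffold of the particle. Nop58 was at 10.12, 10.57 and 10.87 (lowest, median and highest) in ApcMin adenomas of batch 1, against 9.36, 9.32 and 9.43 in wt crypts. All the adenoma arrays were above all the crypt arrays, and Nop58 rose by 1.21 ± 0.17 (2.31-fold, adjusted p = 7.46e-05). Nop56 was at 7.15, 8.08 and 8.51 in ApcMin adenomas, against 7.12, 6.94 and 7.35 in wt crypts, and the lowest adenoma overlapped the crypts. Its change of 0.85 ± 0.25 (95% interval 0.31 to 1.39) did not pass (adjusted p = 0.0119). Without ApcMin replicate 3, the change was 1.02 and passed (adjusted p = 0.000787). Rrp9, the protein specific to the U3 particle that is needed for the early cuts of the precursor, averaged 7.94 ± 0.35 in ApcMin adenomas (n = 6) and was at 6.41, 6.72 and 6.98 in wt crypts. It rose by 1.22 ± 0.22 (adjusted p = 0.000432).

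Gar1 and Nhp2 are core proteins of H/ACA particles and of telomerase. Gar1 was at 10.78, 11.24 and 11.59 in ApcMin adenomas, against 9.63, 9.33 and 9.48 in wt crypts, and rose by 1.71 ± 0.17 (3.27-fold, adjusted p = 3.23e-06). Nhp2 averaged 10.91 ± 0.28 in ApcMin adenomas and was at 9.58, 9.45 and 9.64 in wt crypts, a rise of 1.34 ± 0.16 (adjusted p = 1.39e-05). For neither gene did the groups overlap. Nolc1, a chaperone of snoRNPs, was detected in no crypt array, in no QKO array and in no ApcMin array of batch 2, so no fold is given for it.

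Of the nucleolar proteins, Ncl (nucleolin) and Npm1 (nucleophosmin) are abundant multifunctional ones, Mybbp1a is a nucleolar repressor of several transcription factors, and Ddx21 is an RNA helicase of rRNA synthesis. Ncl was at 9.06, 9.28 and 9.51 in ApcMin adenomas, against 8.11, 7.76 and 7.93 in wt crypts. Npm1 was at 12.94, 13.17 and 13.40 in ApcMin adenomas, against 12.32, 12.11 and 12.08 in wt crypts. In neither did the groups overlap: Ncl rose by 1.35 ± 0.13 (2.55-fold, adjusted p = 2.89e-06) and Npm1 by 0.99 ± 0.13 (1.98-fold, adjusted p = 4.37e-05). Mybbp1a had the largest change of the list by the brighter probe of each gene. It was at 9.65, 10.37 and 10.78 in ApcMin adenomas, against 8.13, 8.25 and 7.65 in wt crypts, a rise of 2.24 ± 0.25 (4.72-fold, adjusted p = 7.15e-06). Its 3 dimmer probes were nearer to background. A pair of them changed by 1.07 ± 0.16 and 1.15 ± 0.23 and passed, each detected in 1 of 3 wt crypts, and the dimmest was detected in none of these. Gnl3 (nucleostemin), a nucleolar GTPase of dividing and stem cells, was detected in 2 of the 6 ApcMin arrays of batch 1 and in none of the 12 crypt arrays, so that its crypt level is only bounded from above. It did not pass (adjusted p = 0.0721).

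Polr1a and Polr1b are the large catalytic subunits of RNA polymerase I, and Polr1c is a subunit shared with RNA polymerase III. Polr1a was at 9.39, 9.66 and 10.22 in ApcMin adenomas, against 7.97, 7.69 and 7.84 in wt crypts, and rose by 1.83 ± 0.17 (3.56-fold, adjusted p = 1.78e-06). Polr1b averaged 7.82 ± 0.23 in ApcMin adenomas and was at 6.25, 6.32 and 6.77 in wt crypts, a rise of 1.36 ± 0.16 (adjusted p = 1.66e-05). No array of one group reached the other in either gene. The change of Polr1c was 0.33 ± 0.24 (95% interval -0.19 to 0.85, adjusted p = 0.264).

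**Figure D2:**
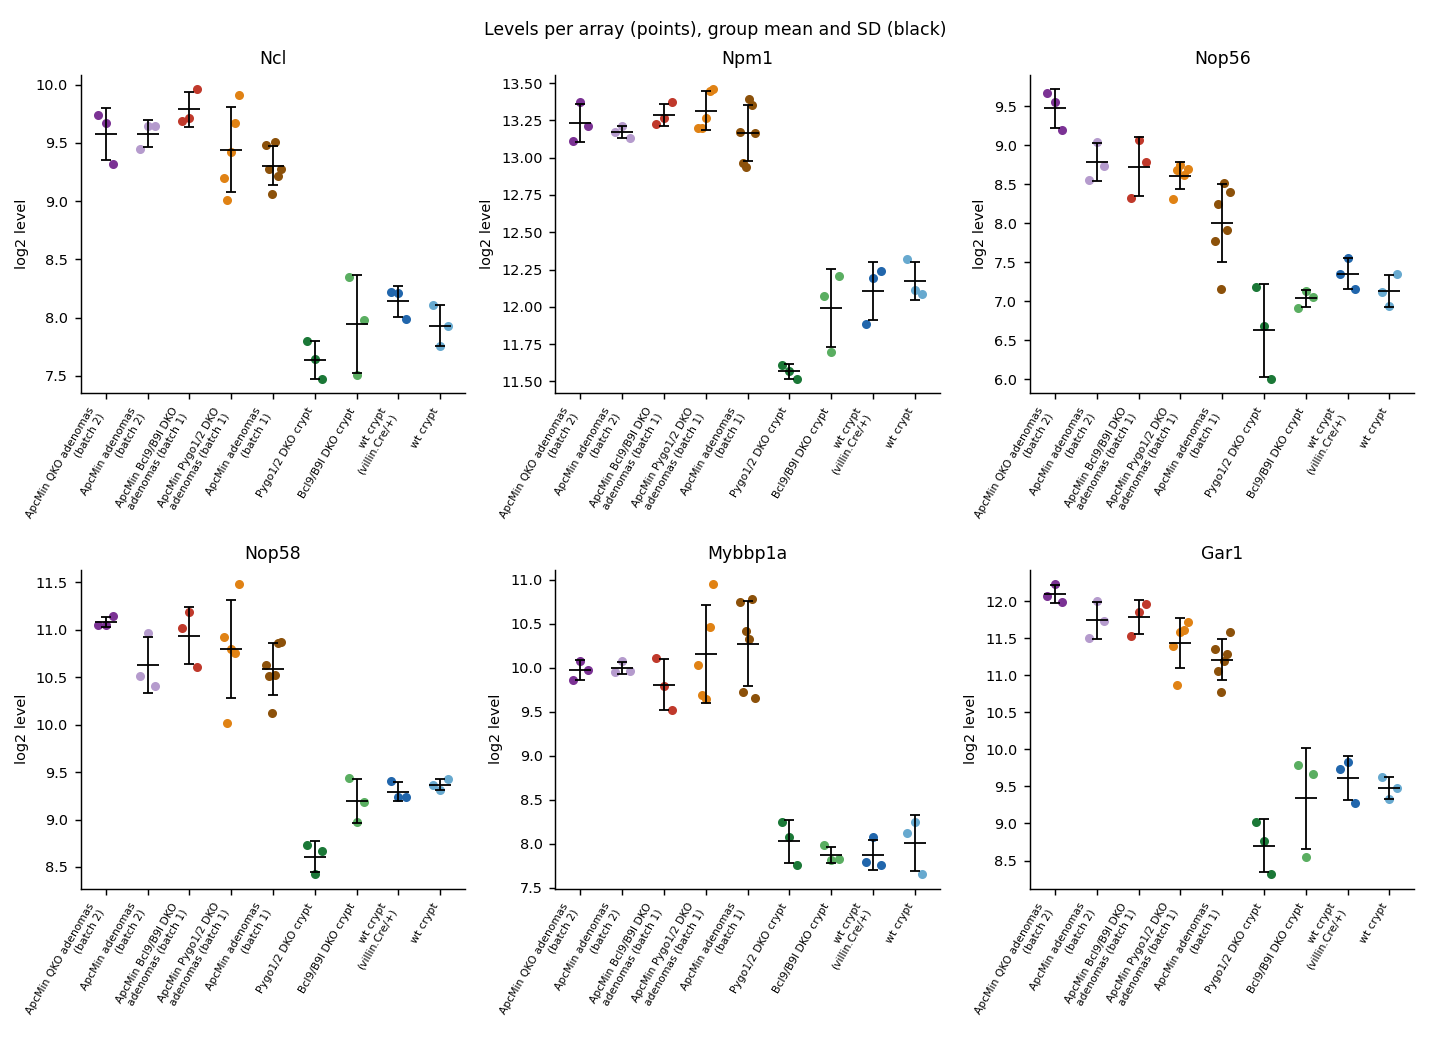
Log2 level of Ncl, Npm1, Nop56, Nop58, Mybbp1a and Gar1 in each array (points) by group and batch, with bars at the group mean. In all but the Nop56 panel, every adenoma array lies above every crypt array, and for Mybbp1a the adenomas start at 9.52 and the crypts end at 8.25.

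For the small subunit, Heatr1 and Noc4l rose most. Heatr1, a part of the early processome that joins transcription to the first cuts, averaged 10.24 ± 0.15 in ApcMin adenomas, against 8.96, 8.36 and 8.57 in wt crypts. It rose by 1.59 ± 0.15 (3.00-fold, adjusted p = 1.59e-06). Noc4l, whose yeast counterpart acts in nuclear export of the small subunit precursor, averaged 8.58 ± 0.27 in ApcMin adenomas, against 7.26, 6.74 and 7.14 in wt crypts, and rose by 1.51 ± 0.17 (adjusted p = 7.82e-06). The groups were apart for both genes. Wdr75, Nob1, Wdr43, Rcl1 and Imp4 also rose, by 1.39 to 0.83, whereas Utp15, Nop14 and Ltv1 had changes of 0.70, 0.48 and 0.17 that did not pass.

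For the large subunit, Rrp1b and Noc2l had the largest changes. Rrp1b averaged 8.28 ± 0.29 in ApcMin adenomas, against 6.78, 6.70 and 6.90 in wt crypts, and rose by 1.46 ± 0.17 (adjusted p = 1.25e-05). Noc2l, the nucleolar complex protein that helps move precursors of the large subunit, averaged 9.62 ± 0.27 in ApcMin adenomas, against 8.16, 8.26 and 8.27 in wt crypts, and rose by 1.37 ± 0.15 (adjusted p = 8.04e-06). Pes1, Nip7, Nop2, Wdr74 and Ebna1bp2 rose too, by 1.23 to 0.51. Bop1, the partner of Pes1 in the PeBoW complex that matures the large subunit rRNAs, changed by 0.45 ± 0.26 (95% interval -0.11 to 1.02, adjusted p = 0.165). Its level was 8.64 in the ApcMin adenomas of batch 1 and 7.78 in those of batch 2.

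Counted by probe, 37 of 56 probes rose and 1 fell. In 10 of the 16 tested genes with several probes, the probes differed in whether they passed. The dimmer probes of Ddx21 and Imp4, detected in all ApcMin and wt arrays, changed by 0.07 and 0.17, against 1.28 and 0.83 for the brighter ones. The dimmer Ebna1bp2 probe was detected in 3 of 6 ApcMin adenomas and in 0 of 3 wt crypts, so no direction is given for it. Probe sequences were not used here, so which transcripts the probes of a gene read was not tested.

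Tsr1, a factor of late small subunit assembly, was the exception in direction and depended on the probe. Its brighter probe lay between 6.19 and 7.05 in ApcMin adenomas of batch 1, between 5.76 and 6.40 in Pygo1/2 DKO adenomas and at 6.14, 6.36 and 5.98 in Bcl9/B9l DKO adenomas, against 8.07, 7.96 and 7.74 in wt crypts. All 14 adenomas of batch 1 were below all 12 crypt arrays. In batch 2 the same probe was at 7.98, 8.14 and 7.99 in QKO adenomas and at 7.66, 7.90 and 7.42 in ApcMin adenomas, near the range of the crypts, which ran between 7.48 and 8.34. The ApcMin adenomas of the 2 batches thus did not overlap for this probe, and no crypts were in batch 2 to set them against. The dimmer probe averaged 6.58 ± 0.76 in ApcMin adenomas of batch 1 and was at 5.49, 5.45 and 5.59 in wt crypts, where it was detected in none of the 3 arrays. Its change did not pass in ApcMin adenomas over wt crypts (adjusted p = 0.0314). The fall of Tsr1 rests on 1 probe and on arrays of 1 batch.

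**Figure D3:**
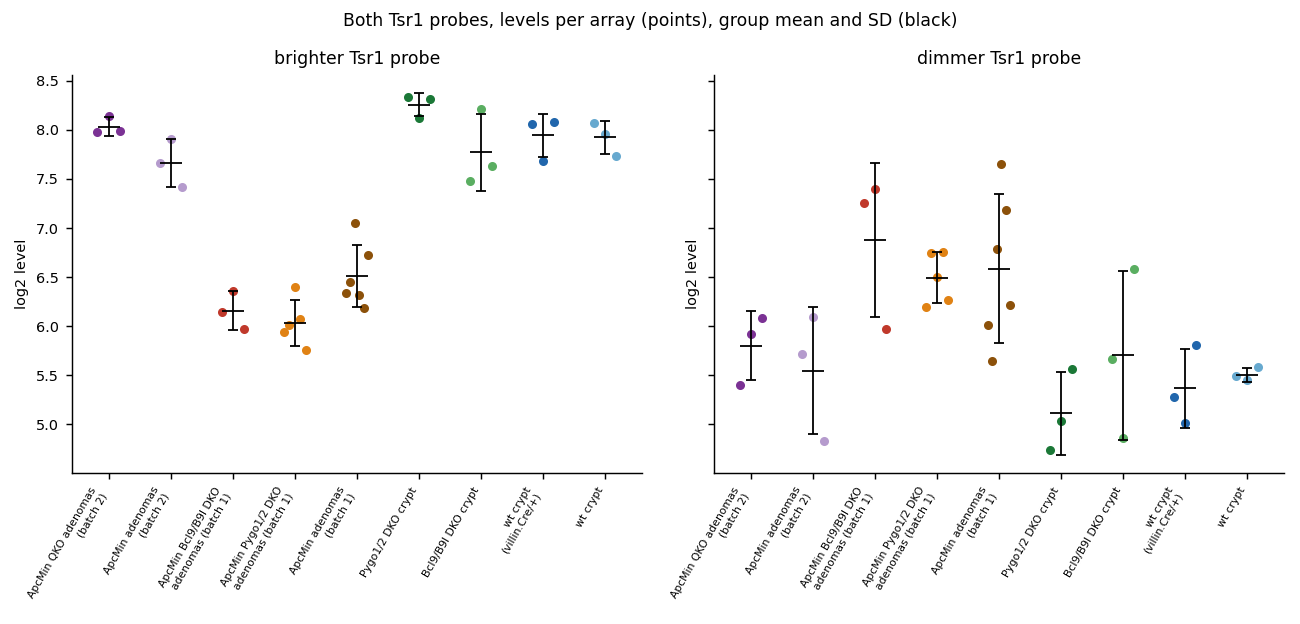
Log2 level of the brighter and the dimmer Tsr1 probe in each array, by group and batch. The brighter probe is lower in the adenomas of batch 1 (5.76 to 7.05) than in crypts and in the adenomas of batch 2, which start at 7.42, while the dimmer probe lies between 5.65 and 7.65 in the adenomas of batch 1 and overlaps the crypts.

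The same contrast was made within each knockout. In Pygo1/2 DKO adenomas against Pygo1/2 DKO crypts, 26 members rose and Tsr1 fell, at a background of 21.7% of probes higher and 20.4% lower. The median change was 1.73, against -0.05 over all 18698 probes. Xist was detected in all 5 adenomas and none of the 3 crypts (adjusted p = 1.36e-07), so that sex ran with tissue here too. Every adenoma array was above every crypt array in 27 members and below in 1 (all probes: 28% and 26.7%). Gar1 rose by 2.70 ± 0.23 (6.50-fold, adjusted p = 3.28e-06), being at 11.39, 10.87, 11.59, 11.62 and 11.72 in Pygo1/2 DKO adenomas, against 9.02, 8.77 and 8.32 in Pygo1/2 DKO crypts. Nhp2 rose by 2.43 ± 0.19 (adjusted p = 1.71e-06), being at 11.42, 10.97, 11.47, 11.03 and 10.98 in the adenomas, against 8.82, 8.85 and 8.48 in the crypts. For both H/ACA proteins the lowest adenoma was far above the highest crypt array. Next came Heatr1 (2.37 ± 0.25), Wdr75 (2.32 ± 0.15), Nop58 (2.16 ± 0.27), Rrp1b (2.12 ± 0.18) and Polr1a (2.11 ± 0.23).

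Nop56, which did not pass in the ApcMin comparison, rose here by 1.96 ± 0.24 (adjusted p = 4.87e-05), at 8.31, 8.68, 8.74, 8.62 and 8.70 in Pygo1/2 DKO adenomas, against 7.19, 6.69 and 6.01 in Pygo1/2 DKO crypts. Ncl rose by 1.78 ± 0.22, at 9.20, 9.01, 9.42, 9.67 and 9.91 in the adenomas, against 7.80, 7.64 and 7.47 in the crypts. Npm1 rose by 1.73 ± 0.16, at 13.20, 13.20, 13.27, 13.45 and 13.46 in the adenomas, against 11.61, 11.57 and 11.52 in the crypts. None of the 3 overlapped between adenomas and crypts. Gnl3 also passed (adjusted p = 0.00155), with all 5 adenomas and none of the 3 crypt arrays detected. Tsr1 fell by 2.21 on the log2 scale (SE 0.18, adjusted p = 2.52e-06) by its brighter probe while its dimmer probe was called higher (adjusted p = 0.0003). No fold is given for that probe, which all 5 adenomas and none of the 3 crypt arrays detected. The members that did not pass were Nop14, Utp15, Ltv1, Polr1c, Bop1 and Nolc1.

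In Bcl9/B9l DKO adenomas against Bcl9/B9l DKO crypts, 22 members rose and Tsr1 fell (background 11.9% higher and 10.2% lower of 17875 probes). The median change was 1.41, against -0.01 over all probes, with Xist detected in neither group, and 28 members had all adenomas above all crypts and 1 below (background 27.8% and 26.1%). Gar1 was at 11.53, 11.86 and 11.97 in the adenomas, against 9.80, 8.55 and 9.67 in the crypts, a rise of 2.47 ± 0.34 (adjusted p = 0.00104). Polr1a was at 9.92, 9.94 and 9.95 in the adenomas, against 8.25, 7.35 and 7.71 in the crypts, a rise of 2.21 ± 0.25 (adjusted p = 0.00042). The crypt values spread wider than the adenoma values in both. Heatr1 (2.10 ± 0.26), Wdr75 (2.07 ± 0.28), Rrp1b (2.05 ± 0.27), Noc4l (2.04 ± 0.25), Mybbp1a (1.98 ± 0.21) and Polr1b (1.90 ± 0.28) followed. With no detection filter, Gar1 (adjusted p = 0.0117) and Polr1b (0.0113) did not pass.

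Ncl was at 9.69, 9.71 and 9.96 in Bcl9/B9l DKO adenomas, against 8.35, 7.51 and 7.98 in Bcl9/B9l DKO crypts. Npm1 was at 13.22, 13.27 and 13.37 in the adenomas, against 12.07, 11.70 and 12.20 in the crypts. Nop58 was at 11.02, 11.18 and 10.60 in the adenomas, against 9.44, 8.98 and 9.18 in the crypts. These 3 genes rose by 1.88, 1.31 and 1.76 with no overlap (without Bcl9/B9l DKO adenoma replicate 3, Npm1 had an adjusted p of 0.0101), and Nop56, at 8.33, 9.07 and 8.79 in the adenomas against 6.92, 7.14 and 7.06 in the crypts, rose by 1.72. Ltv1, an assembly and export factor of the small subunit, rose in this comparison (0.86 ± 0.19, adjusted p = 0.00858).

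The 3 adenoma comparisons share no array. In all 3, 19 of the 33 members rose, while 10.4% of the 16867 probes tested in each did so. These were Nop58 and Rrp9 of box C/D particles, Nhp2 and Gar1 of H/ACA particles, the nucleolar proteins Ncl, Npm1 and Mybbp1a, Polr1a and Polr1b, the small subunit factors Heatr1, Wdr43, Wdr75, Rcl1, Noc4l and Nob1, and the large subunit factors Wdr74, Rrp1b, Noc2l and Nip7. Nop56, Ddx21, Imp4, Pes1, Nop2 and Ebna1bp2 rose in 2 of the 3, and Gnl3, Nop14 and Ltv1 in 1. Nolc1, Polr1c, Utp15 and Bop1 passed in none.

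**Figure D4:**
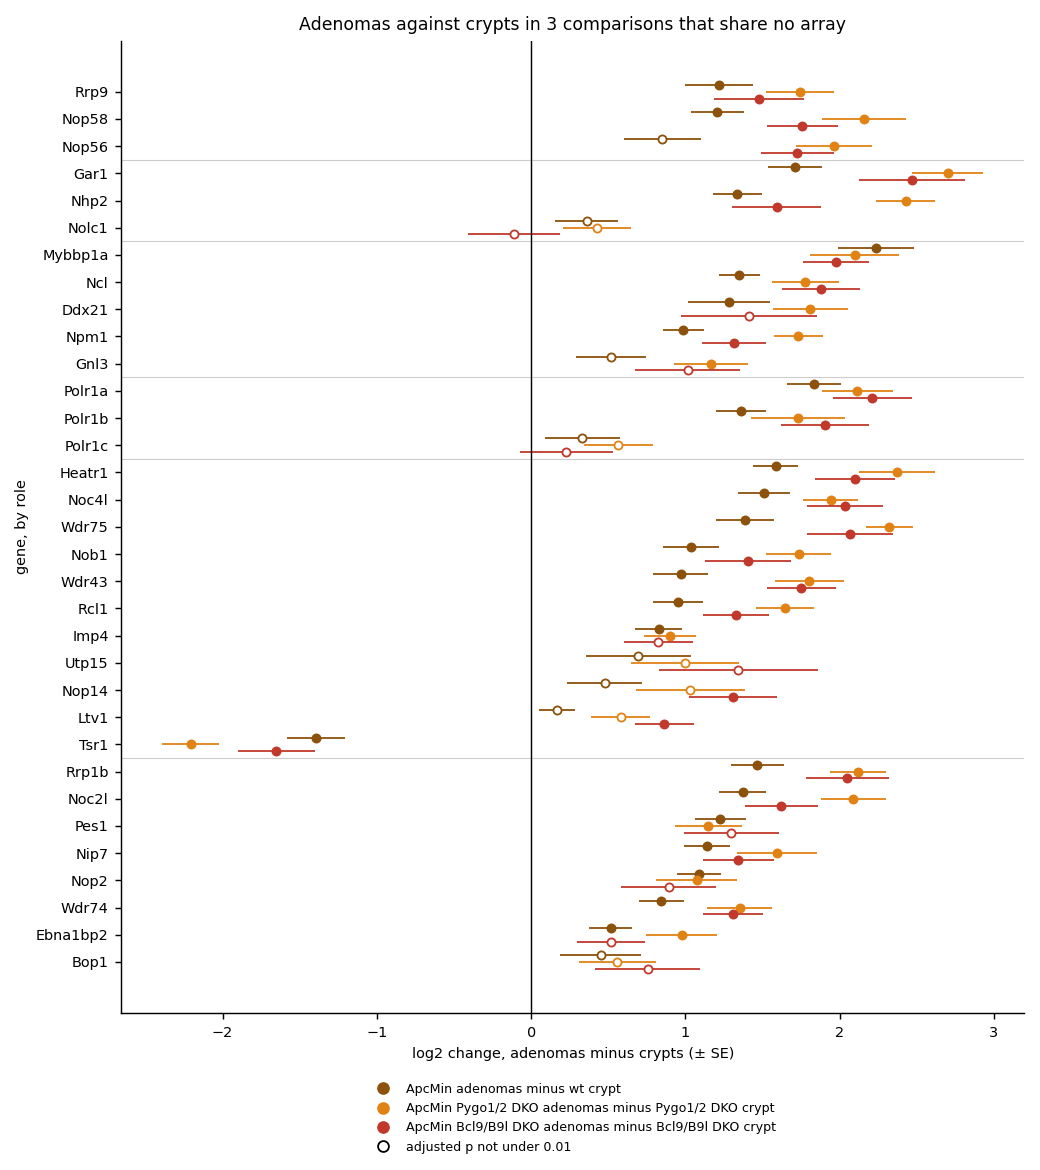
Log2 change (± SE) of each of the 33 members in adenomas over crypts of the same knockout state, for Pygo1/2 DKO, Bcl9/B9l DKO and ApcMin with wt, with filled points at an adjusted p under 0.01. All filled points are above 0 except those of Tsr1, at -2.21, -1.65 and -1.39.

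Other cell types moved with the same contrast. The 7 fibroblast and matrix markers rose in all 3 adenoma comparisons, and 6 of the 7 (Col1a1, Col1a2, Col3a1, Mmp2, Pdgfra and Sparc) were detected in no crypt array, so no median fold is given. Their summed linear level was 9294 to 14312 in Pygo1/2 DKO adenomas and 8034 to 10554 in Bcl9/B9l DKO adenomas, and 157 to 389 in crypts. In batch 2, whose arrays were dimmer and held no crypts, it was 977 to 1660 in QKO adenomas and 2393 to 4431 in ApcMin adenomas. All 5 smooth muscle, 4 endothelial and 4 myeloid markers also rose in ApcMin adenomas over wt crypts. Of 6 proliferation markers, 5 rose in ApcMin adenomas (median 1.09), where their summed level was 4299 to 6187, against 1760 to 2013 in wt crypts. Of 7 enterocyte markers, 4 fell in that comparison. The part of these cell types in the members' changes was not tested.

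Other genes of the pathway, from a list of 126 of which 105 had a probe, were also called higher more often than lower. In ApcMin adenomas over wt crypts, 36 of 99 tested rose and 2 fell, with a median of 0.52. In Pygo1/2 DKO it was 48 risen and 1 fallen of 101 (median 0.76), and in Bcl9/B9l DKO 31 risen and 0 fallen of 100 (median 0.80). By role in the ApcMin comparison, 19 of 45 large subunit factors, 10 of 31 small subunit factors, 4 of 7 snoRNP genes, 2 of 8 exosome genes and 1 of 8 RNA polymerase I genes rose. The largest rises there were Nol10 (1.64 ± 0.17), Ruvbl1 (1.64 ± 0.17), an ATPase of snoRNP assembly, and Znhit6 (1.41 ± 0.23), a box C/D assembly factor. Those that fell were Taf1a (-1.0 ± 0.24), a part of the RNA polymerase I selectivity factor, and Rrp36 (-0.63 ± 0.15).

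Between knockout and ApcMin adenomas, the question was whether loss of the Wnt cofactors changed these levels. All 3 knockout adenoma groups carried villin.Cre/+ and the ApcMin adenomas carried no Cre. Cre and loss of the cofactors therefore cannot be told apart in these comparisons. In QKO adenomas none of the 33 members passed an adjusted p of 0.01 in limma (background 1.29% higher and 3.12% lower). At an unadjusted p under 0.05, 12 were higher and 1 lower, which is 36.4% of the members higher against 12.1% of all 19189 probes (11.8% lower). The median change was 0.30, against 0.03 over all probes, and 28 of 33 changes were above 0 (53.7% of all probes). These changes are of the brightest probe. In 6 of the 17 genes with several probes, another probe had a change of opposite sign. In 16 members all 3 QKO arrays were above the 3 ApcMin arrays of batch 2 (background 18%).

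Nop56 was at 9.67, 9.56 and 9.20 in QKO adenomas, against 8.56, 9.05 and 8.74 in ApcMin adenomas of batch 2, and changed by 0.65 (95% interval 0.05 to 1.25, adjusted p = 0.171). Nop58 was at 11.05, 11.04 and 11.14 in QKO adenomas, against 10.51, 10.96 and 10.41 in the ApcMin ones, and changed by 0.43 (0.01 to 0.86). For both genes all QKO arrays were above all ApcMin arrays, by a margin smaller than the spread within ApcMin adenomas. Ncl was at 9.74, 9.67 and 9.32 in QKO adenomas, against 9.45, 9.64 and 9.65 in ApcMin adenomas, with a change of -0.00 (-0.35 to 0.34). Npm1 was at 13.12, 13.37 and 13.21 in QKO adenomas, against 13.18, 13.21 and 13.13 in ApcMin adenomas, with a change of 0.06 (-0.28 to 0.41). Both overlapped.

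The smallest p upward was that of Rcl1, whose yeast counterpart takes part in an early cut of the precursor. It was at 9.74, 10.02 and 10.12 in QKO adenomas, against 9.14, 9.47 and 9.30 in ApcMin adenomas, with no overlap and a change of 0.63 ± 0.18 (0.25 to 1.02, adjusted p = 0.0388). A dimmer Rcl1 probe changed by 1.02 ± 0.21 and passed (adjusted p = 0.00738). Downward the smallest p was that of Pes1 (-0.49 ± 0.22, adjusted p = 0.195). Fibroblast markers moved with this contrast, as 4 of 7 fell in QKO adenomas with a median of -1.27, and 4 of 6 goblet cell markers fell. Of 6 enteroendocrine markers 3 rose, with sums of 4494 to 5564 in QKO adenomas and 1563 to 3192 in ApcMin adenomas of batch 2. Paneth cell sums were also higher without overlap, at 57259 to 59160 against 35335 to 52340 (0 of 5 passed). Smooth muscle sums were 832 to 3096 in QKO adenomas, against 3458 to 4550 (0 of 5 passed). Endothelial and myeloid sums were also lower without overlap (0 of 4 and 1 of 4 fell). Summed proliferation markers overlapped, at 5501 to 7943 in QKO adenomas and 6918 to 8384 in ApcMin adenomas of batch 2. The part of these cells was not tested. Among the other genes of the pathway, 1 of 103 rose (Nle1, 0.73 ± 0.15, adjusted p = 0.00709).

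In Bcl9/B9l DKO adenomas against ApcMin adenomas, 1 of 33 members, Ltv1, rose (background 0.716% higher and 1.55% lower). Ltv1 was at 8.15, 8.33 and 8.19 in Bcl9/B9l DKO adenomas, against 7.46 to 7.70 in the 9 ApcMin adenomas, with no overlap. The change was 0.63 ± 0.12 (0.38 to 0.89, adjusted p = 0.00642). The call held without ApcMin replicate 5 or 7 and was lost without any of the other 10 arrays, with adjusted p up to 0.0396 and a change of 0.59 to 0.67. It was also lost within batch 1 alone (0.64, adjusted p = 0.021). At an unadjusted p under 0.05, 10 members were higher and 0 lower (all probes: 11.6% and 10.9%), and the median was 0.25. In 3 of the 16 tested genes with several probes, another probe had a change of opposite sign. In 5 members all Bcl9/B9l DKO arrays were above all 6 ApcMin arrays of batch 1, where 5.2% of probes were. Ncl changed by 0.47 ± 0.14 (0.18 to 0.77, adjusted p = 0.0588), Nop56 by 0.69 (0.12 to 1.25), Nop58 by 0.33 (-0.08 to 0.75) and Npm1 by 0.12 (-0.18 to 0.42). Xist was detected in 0 of 3 Bcl9/B9l DKO adenomas, against all 6 ApcMin adenomas of batch 1 (adjusted p = 0.0115). Other cell types moved too. Summed enterocyte markers were at 18845 to 23120 in Bcl9/B9l DKO adenomas, against 36737 to 48456 in ApcMin adenomas of batch 1 (1 of 7 fell), and lymphocyte and plasma cell markers at 443 to 754, against 1064 to 3045 (3 of 4 fell). Enteroendocrine markers were at 3989 to 6659 in Bcl9/B9l DKO adenomas, against 2429 to 3877 (3 of 6 rose), and myeloid markers at 1467 to 1764, against 2002 to 2538 (0 of 4 passed). Proliferation markers overlapped, at 5103 to 5918 against 4299 to 6187. The part of sex and of these cells was not tested. The most negative member was Mybbp1a (-0.45, -0.98 to 0.08, adjusted p = 0.299), at 10.11, 9.79 and 9.52 in Bcl9/B9l DKO adenomas, against 9.65 to 10.78 in ApcMin adenomas of batch 1.

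In Pygo1/2 DKO adenomas against ApcMin adenomas, 0 of 33 members passed (limma, background 0.0568% higher and 0.124% lower). At an unadjusted p under 0.05, 4 were higher and 1 lower, against 7.66% and 6.99% of 19380 probes, and the median was 0.16. Another probe had a change of opposite sign in 3 of the 16 tested genes with several probes. Ltv1 again had the smallest p upward, at 7.90, 7.80, 7.88, 7.91 and 8.23 in Pygo1/2 DKO adenomas, against 7.46 to 7.70 in the 9 ApcMin adenomas. The change was 0.36 ± 0.11 (0.13 to 0.59, adjusted p = 0.13). Ltv1 was the only member with all Pygo1/2 DKO arrays above all ApcMin arrays of batch 1 (background 0.784%), and none had all below. The smallest p downward was that of the brighter Tsr1 probe (-0.47 ± 0.16, adjusted p = 0.198). Ncl changed by 0.13 (-0.19 to 0.46), Npm1 by 0.16 (-0.10 to 0.42), Nop56 by 0.57 (0.15 to 0.98) and Nop58 by 0.20 (-0.24 to 0.64). Lymphocyte and plasma cell markers were at 337 to 749 in Pygo1/2 DKO adenomas, against 1064 to 3045 in ApcMin adenomas of batch 1 (2 of 4 fell), and their part was not tested. The 3 knockout comparisons share ApcMin arrays. Of the other genes of the pathway, 0 of 101 passed in Pygo1/2 DKO and 0 of 101 in Bcl9/B9l DKO adenomas, with medians of 0.12 and 0.24.

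**Figure D5:**
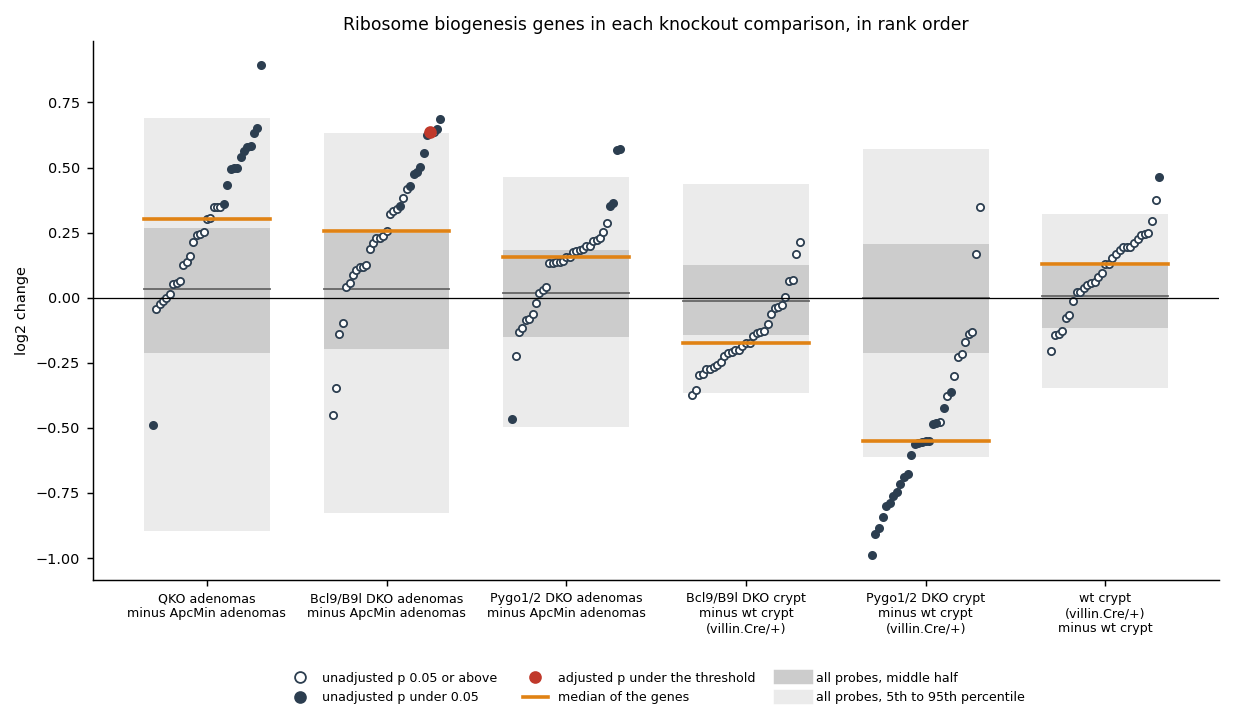
Log2 change of the 33 members (31 in crypts) in each knockout comparison, as ordered points with the median in orange, over the 25 to 75 and 5 to 95 percentile ranges of all probes in grey. Ltv1 in Bcl9/B9l DKO adenomas is the only member past the threshold, and the Pygo1/2 DKO crypt points lie lowest, with a median of -0.55.

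When the knockout adenomas were set against each other, none of the 33 members passed in limma. Bcl9/B9l DKO over Pygo1/2 DKO had a median of 0.13 and 1 member higher and 0 lower at an unadjusted p under 0.05 (6.89% and 7.45% of 20202 probes; called by adjusted p: 0.441% and 1%). QKO over Bcl9/B9l DKO had a median of 0.06 with 1 higher and 0 lower (background 5.81% and 6.44%, called 0.0842% and 0.223%). QKO over Pygo1/2 DKO had a median of 0.13 with 2 higher and 0 lower (background 7.89% and 9.47%, called 0.505% and 2.06%). The last 2 comparisons cross the batches and rest on the ApcMin arrays to join them. The departure of QKO from the sum of the 2 DKO effects had a median of -0.14, with 1 member higher and 1 lower at an unadjusted p under 0.05 (background 6.55% and 7.06%, called 0.0891% and 0.099%). Tsr1, by its brighter probe, gave the smallest adjusted p for QKO over Pygo1/2 DKO (0.82, adjusted p = 0.0677). That probe averaged 6.51 in ApcMin adenomas of batch 1 and 7.66 in those of batch 2, the arrays that join the batches.

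Myc itself was detected in no crypt array, so no fold over crypts is given. It was detected in 3 of 3 QKO adenomas, at 6.43 to 6.88, and in 1 of 3 ApcMin adenomas of batch 2, at 5.26 to 6.08. Myc was called higher in QKO adenomas (adjusted p = 0.00601), and since most of the ApcMin arrays were not above background, no fold is given. It was detected in 3 of 3 Bcl9/B9l DKO and 2 of 5 Pygo1/2 DKO adenomas, against 1 of 6 ApcMin adenomas of batch 1, and passed in neither comparison. Mycl, of the Myc family, was called higher in Bcl9/B9l DKO over ApcMin adenomas (1.68 ± 0.30, limma adjusted p = 0.00528). Mycl did not pass in Pygo1/2 DKO (0.02) or QKO (-0.01) over ApcMin adenomas, or in ApcMin adenomas over wt crypts (0.55). It rose in Pygo1/2 DKO (1.40) and Bcl9/B9l DKO (2.80) adenomas over their crypts. The part of Mycl was not tested.

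In Pygo1/2 DKO crypts, the members were mostly lower than in wt (villin.Cre/+) crypts, although none passed an adjusted p of 0.05. Gnl3 and Nolc1 were not detected in crypts, which left 31 members. By limma 0 of 31 passed (background 0.137% higher and 0.13% lower), while 21 of 31 (67.7%) were lower at an unadjusted p under 0.05, against 10.6% of 15375 probes, and 0 were higher (background 7.04%). In 21 members every Pygo1/2 DKO array was below every wt (villin.Cre/+) array (background 13.7%). The median change was -0.55, against -0.00 over all probes, and 29 of 31 changes were below 0 (50.1% of all probes). These changes are of the brightest probe. In 4 of the 12 tested genes with several probes, another probe had a change of opposite sign.

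Rcl1 had the smallest p, at 7.74, 7.92 and 7.92 in Pygo1/2 DKO crypts, against 8.78, 8.55 and 8.54 in wt (villin.Cre/+) crypts (-0.84 ± 0.15, -1.19 to -0.49, adjusted p = 0.0748). Nob1, the nuclease that makes the final cut of the small subunit rRNA, was at 6.86, 7.01 and 6.49 in Pygo1/2 DKO crypts, against 7.59, 7.67 and 7.55 in wt (villin.Cre/+) crypts (-0.91 ± 0.18, adjusted p = 0.0849). Nop58 was at 8.73, 8.42 and 8.67 in Pygo1/2 DKO crypts, against 9.41, 9.24 and 9.23 in the wt ones (-0.76 ± 0.16, adjusted p = 0.085). The groups of these 3 genes did not overlap. Ncl was at 7.80, 7.64 and 7.47 in Pygo1/2 DKO crypts, against 8.22, 8.21 and 7.99 in wt (villin.Cre/+) crypts (-0.55, -0.92 to -0.18, adjusted p = 0.147). Npm1 was at 11.61, 11.57 and 11.52 in Pygo1/2 DKO crypts, against 11.89, 12.20 and 12.24 in the wt ones (-0.55, -0.91 to -0.19, adjusted p = 0.135). Neither gene overlapped. Tsr1 had the smallest p upward (0.35 ± 0.17, adjusted p = 0.345).

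The scale of the values mattered here. With the authors' deposited log2 values, Nhp2, Nob1, Nop58, Npm1 and Rcl1 passed, with changes of -0.42 to -0.58. Summed proliferation markers moved the same way, at 1133 to 1565 in Pygo1/2 DKO crypts against 1828 to 2055 in wt (villin.Cre/+) crypts, as did stem cell markers, at 1113 to 1463 against 1914 to 3043, and Paneth cell markers, at 32811 to 53102 against 54726 to 56452. Enterocyte and enteroendocrine sums moved the other way, without overlap. Enterocyte sums were 76097.2 to 84912.5 in Pygo1/2 DKO crypts, against 66447.4 to 73763 in wt (villin.Cre/+) crypts. Enteroendocrine sums were 12216 to 14705, against 9554 to 11275. The part of these cells was not tested. Of the other genes of the pathway 0 of 91 passed, with a median of -0.28, and 25 (27.5%) were lower at an unadjusted p under 0.05.

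Bcl9/B9l DKO crypts were set against the same controls. No member of 31 passed in limma and none had an unadjusted p under 0.05 (background 2.36% higher and 2.15% lower of 15750 probes; called by adjusted p: 0% and 0.0381%). The median was -0.18, and 26 of 31 changes were below 0, against 52.6% of all probes. Another probe had a change of opposite sign in 5 of the 13 tested genes with several probes. Nop56 had the smallest p, at 6.92, 7.14 and 7.06 in Bcl9/B9l DKO crypts, against 7.35, 7.55 and 7.16 in wt (villin.Cre/+) crypts (-0.35 ± 0.18, -0.76 to 0.05). Ncl was at 8.35, 7.51 and 7.98 in Bcl9/B9l DKO crypts, against 8.22, 8.21 and 7.99 in wt (villin.Cre/+) crypts (-0.21, -0.77 to 0.35). The Bcl9/B9l DKO and Pygo1/2 DKO crypts were not tested against each other. The low Bcl9/B9l DKO value, 7.51 in replicate 2, recurred in Npm1 (11.70) and Gar1 (8.55). Both DKO crypt groups shared the wt (villin.Cre/+) arrays.

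With both DKO crypt groups set against both wt groups, 0 of 31 members passed (background 0.27% in each direction) and 13 (41.9%) were lower at an unadjusted p under 0.05 (background 7.5%), with a median of -0.27. The wt crypts with villin.Cre over those without had a median of 0.13, with 0 members passing (background 0.0129% higher and 0.0258% lower). At an unadjusted p under 0.05 there was 1, Nop2 (0.47, background 1.83% higher). Of the 31 changes with villin.Cre, 24 were above 0, against 51.3% of all probes. The effect of the knockout in adenomas minus that in crypts was also fitted. Its adenoma part also held the presence of Cre, and its crypt part did not. For Pygo1/2 the median difference was 0.63, with 0 of 33 past an adjusted p of 0.01 (limma, background 0.0352% higher and 0.0403% lower), 19 higher and 1 lower at an unadjusted p under 0.05 (background 10% and 6.67%). Nhp2 had a difference of 0.97 ± 0.24 (adjusted p = 0.046). For Bcl9/B9l the median was 0.44, with 0 past the threshold (background 0.0965% higher and 0.391% lower), 8 higher at an unadjusted p under 0.05 (background 7.46%, and 7.55% lower), and Ltv1 at 0.85 ± 0.18 (adjusted p = 0.024).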

How the data were processed

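The authors exported probe intensities and detection p-values from GenomeStudio 2011.1 without background correction, and their deposited log2 values had been variance-stabilised, quantile-normalised and batch-corrected before testing in limma 3.34.9. Of 20824 probes in the deposited table, 17608 had 1 gene symbol in the platform annotation, 9 had several and 3207 none. Here the deposited intensities were background-corrected with neqc (limma 3.58.1, R 4.3.3, offset 16) and quantile-normalised, with negative controls inferred from the detection p-values. Levels came from all 32 arrays together, and changes from the arrays of each of 16 comparisons. Probes detected at p below 0.01 in 1 or more arrays were fitted with lmFit and eBayes, with batch as a term, and p-values were adjusted (Benjamini-Hochberg) over all probes. The threshold was 0.01 for adenomas and 0.05 for crypts. Intervals are at 95%. The number of arrays limits the precision.

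The members and gene lists were chosen with earlier results of these data known. Genes named in full were Ncl, Npm1, Nop56 and Nop58, the called members with the largest changes in each role class (ApcMin over wt) or overall (8 at most), and otherwise those of smallest p in each direction. Genes given in lists or chosen for their probes or detection were named after their values were seen. The alternatives were no background correction, the deposited log2 values, other detection filters, any probe per gene, each array left out, the replicate number as a block, and batch 1 or 2 alone. Median scaling and the use of both wt groups were chosen after seeing the data. Models were tested on simulated data. Tables and plots used Python 3.11.15 (pandas 2.3.3, scipy 1.17.1, matplotlib 3.10.9).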

Additional observations from a re-analysis of the deposited data

Results flagged for a closer look

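In 4 of 68 groups of 4 to 10 arrays, 1 array stood apart from the rest of its group by Dixon's criterion, which chance meets in about 1 of 20. All 4 were in ApcMin Pygo1/2 DKO adenomas, each for 1 gene. Nop56 was at 8.31 in replicate 1, against 8.62 to 8.74 in the other arrays of the group. Polr1b was at 6.90 in replicate 3, against 8.03 to 8.48. Wdr75 was at 9.85 in replicate 3, against 9.71 to 9.74, a gap far smaller than the difference from crypts. Ltv1 was at 8.23 in replicate 5, against 7.80 to 7.91, and all 5 arrays were above the 9 ApcMin adenomas.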

How the results depend on the processing

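In ApcMin over wt, 25 members were called, 24 to 27 under the other settings, 23 to 26 with an array left out, and 16 with the replicate number as a block. In Pygo1/2 DKO 27 were called (23 to 30 under the other settings, 25 to 27 with an array left out), and in Bcl9/B9l DKO 23 (17 to 24 under the other settings, 18 to 22 with an array left out). Same-numbered arrays did not deviate together in every pair of ApcMin over wt (correlations -0.33 to 0.15). In Pygo1/2 DKO over wt (villin.Cre/+) crypts they correlated at 0.02 to 0.43 (median 0.23, against -0.11 for other numbers). In Bcl9/B9l DKO over wt (villin.Cre/+) crypts the median was 0.25, against -0.10. In wt (villin.Cre/+) over wt crypts it was -0.33, against 0.18. The labels do not say whether the number pairs samples, and the main fits did not use it. In Bcl9/B9l DKO over ApcMin adenomas, 1 member was called, 0 with the replicate block, 0 within batch 1 alone and 0 to 1 with an array left out. In QKO over ApcMin adenomas 0 were called, and 1 where any probe of a gene counted. In Pygo1/2 DKO over wt (villin.Cre/+) crypts 0 were called, 1 without background correction, 5 with the deposited log2 values and 3 with the replicate block. In both DKO over both wt crypts 0 were called, 1 with the deposited values and 0 to 1 with an array left out, the 1 (Nop58, -0.53) without Bcl9/B9l DKO crypt replicate 1. For the Bcl9/B9l difference between tissues 0 were called, 1 with the deposited values and 1 with no detection filter. The cause was not tested. Of 1407 values for 81 named results, 1370 kept their direction and side of the threshold, 17 no longer passed, 11 newly passed and 9 changed sign. Those that changed sign were all small: Ncl in QKO over ApcMin was -0.00, 0.016 with median scaling and -0.080 to 0.12 with an array left out, and Npm1 there was 0.06 (-0.00911 to 0.12). In Bcl9/B9l DKO over wt (villin.Cre/+) crypts, Ncl was -0.43 to 0.027, Npm1 -0.24 to 0.025 and Nop58 -0.23 to 0.017, the highest each without Bcl9/B9l DKO crypt replicate 2. Tsr1 in both DKO over both wt crypts was 0.09 (-0.032 to 0.17). Median scaling, added after seeing the data, moved the median of all probes by 0.17 in ApcMin over wt and 0.16 in Pygo1/2 DKO over its crypts, and the share of higher among called probes to 59.2% and 59.5%, against 47.9% and 51.6%. In the Bcl9/B9l difference between tissues the median moved by -0.11 and the share to 9.33%, against 19.8%. The share also moved by over 10 points in Bcl9/B9l DKO over wt (villin.Cre/+) crypts (36.4%, against 0%, of few calls) and in the QKO departure from additivity (60%, against 47.4%). With few arrays a group and dim probes such as Nolc1, Gnl3 and Utp15 near background, small changes were not detectable.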
